A study of Mus musculus with 7 samples.

Results

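The BCL2 family decides whether a cell opens its mitochondria and dies. The 9 genes described here were taken by symbol from the 32286 features counted in every library: the survival genes Bcl2, Bcl2l1, Mcl1 and Bcl2a1b, the BH3-only death genes Bcl2l11, Bbc3 and Bad, and the effector genes Bax and Bak1. They were followed through 7 single-cell RNA libraries of thymocytes at the point where double negative (DN) cells, which carry neither CD4 nor CD8, part into αβ and γδ T cells. The study asked how the transcriptome differs along that bifurcation and in DN3 cells that lack the adaptor LAT, which relays signals from the T cell receptor.

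All cells came from C57BL/6 mice. The 5 wild type (WT) libraries were made from thymi pooled from females and males of 6 to 8 weeks, depleted of CD4+ and CD8+ cells and then sorted. WT DN3a cells were CD44- CD25+ and negative for CD71, the transferrin receptor that marks growing and dividing cells. The γδ- cells of both the DN3b and the DN4 stage were sorted as CD71+ and lie on the αβ path, whereas the γδ+ cells of both stages carried a γδ T cell receptor at the surface. The other 2 libraries, DN3 γδ- and DN3 γδint, came from mice of genotype Lat-/-TCRd-H2BEGFP, in which Lat is deleted and the reporter marks cells expressing Trdc. These cells were sorted from total thymocytes rather than depleted ones, their age was not in the labels, and the WT libraries did not carry the reporter. The γδint cells had an intermediate amount of γδ receptor. Each of the 7 libraries also received 500 splenic B lymphocytes, which were prepared alongside the thymocytes and are used below as a second population measured in the same tube.

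Each population was 1 library, so no difference between populations could be tested against a spread between animals or cultures, and no p-value is given. Intervals are exact, at 95%, and cover counting error only. The level of a gene is its number of unique molecular identifiers (UMIs) over all thymocyte barcodes of a library in CPM, scaled to 1000000 UMIs of those barcodes. Reads came from the 3' end, so a level is compared between libraries and not between genes.

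Proteins of the BCL2 family work by binding each other at the outer mitochondrial membrane. BCL2, BCL-XL (from Bcl2l1), MCL1 and A1 (from Bcl2a1b) hold the effectors BAX and BAK in check. BH3-only proteins such as BIM (from Bcl2l11), PUMA (from Bbc3) and BAD carry a short helix, the BH3 domain, that fills the groove of the survival proteins and frees the effectors, which then form pores and release cytochrome c. In developing thymocytes BCL2 is known as a target of interleukin 7 signalling, MCL1 is required for the survival of early thymocytes, and BIM is best known for the deletion of thymocytes that bind self antigen too strongly.

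The BH3 helix is the element that the members share, and its coding stretch is shown because it is what places Bcl2l11, Bbc3 and Bad in the same family as the genes that they oppose. In the coding sequence of 8 of the 9 members a search for a leucine followed, 5 residues on, by an aspartate after a small residue found exactly 1 stretch. No stretch of this kind was found in Bcl2a1b. The sequences below are the coding strand, 5′ to 3′, from GENCODE transcripts on build GRCm38, and capitals mark the codons of the leucine and the aspartate. The first 3 belong to survival genes, the next 3 to BH3-only genes and the last 2 to effectors.
Bcl2 (chr1:106712575-106712607, minus strand, exon 1): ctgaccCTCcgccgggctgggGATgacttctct
Bcl2l1 (chr2:152829697-152829729, minus strand, exon 2): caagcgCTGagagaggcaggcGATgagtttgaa
Mcl1 (chr3:95659430-95659462, plus strand, exon 1): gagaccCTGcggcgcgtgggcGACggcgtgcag
Bcl2l11 (chr2:128147144-128147176, plus strand, exon 3): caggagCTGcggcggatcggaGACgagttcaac
Bbc3 (chr7:16313767-16313799, plus strand, exon 3): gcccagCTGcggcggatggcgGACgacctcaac
Bad (chr19:6950786-6950818, plus strand, exon 3): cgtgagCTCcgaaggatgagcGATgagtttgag
Bax (chr7:45465997-45466029, minus strand, exon 3): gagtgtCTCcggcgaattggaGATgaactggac
Bak1 (chr17:27022531-27022563, minus strand, exon 4): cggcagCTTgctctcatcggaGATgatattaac

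The libraries differed in depth and in cycling. They held 5274 to 18515 thymocyte barcodes and 37820685 to 338698944 thymocyte UMIs, with a median per barcode between 5737.5 UMIs in Lat-/- DN3 γδint and 18506 for WT DN4 γδ-. Lat, the deleted gene, stood at 357 to 648 CPM in the 5 WT libraries, at 4.83 CPM in Lat-/- DN3 γδ- and at 0.899 CPM in Lat-/- DN3 γδint. Markers of T cells were found in at least 98.46% of thymocyte barcodes of every library. Summed markers of erythroid cells reached 170 CPM in WT DN4 γδ- against 0.149 to 35.7 CPM elsewhere, those of natural killer cells were at 13.7 CPM in WT DN4 γδ+ and below 1 CPM elsewhere (all 3 at 0 in both Lat-/- libraries), and those of myeloid cells lay between 99.8 and 190 CPM. Ribosomal protein genes took 15.9% of thymocyte UMIs in Lat-/- DN3 γδint, against 25.7% to 31.4% elsewhere, and the spiked B cells of that library were also the lowest, at 17.5%. Of 89086 distinct barcodes, 925 occurred in more than 1 library. No library was left out.

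**Figure D1:**
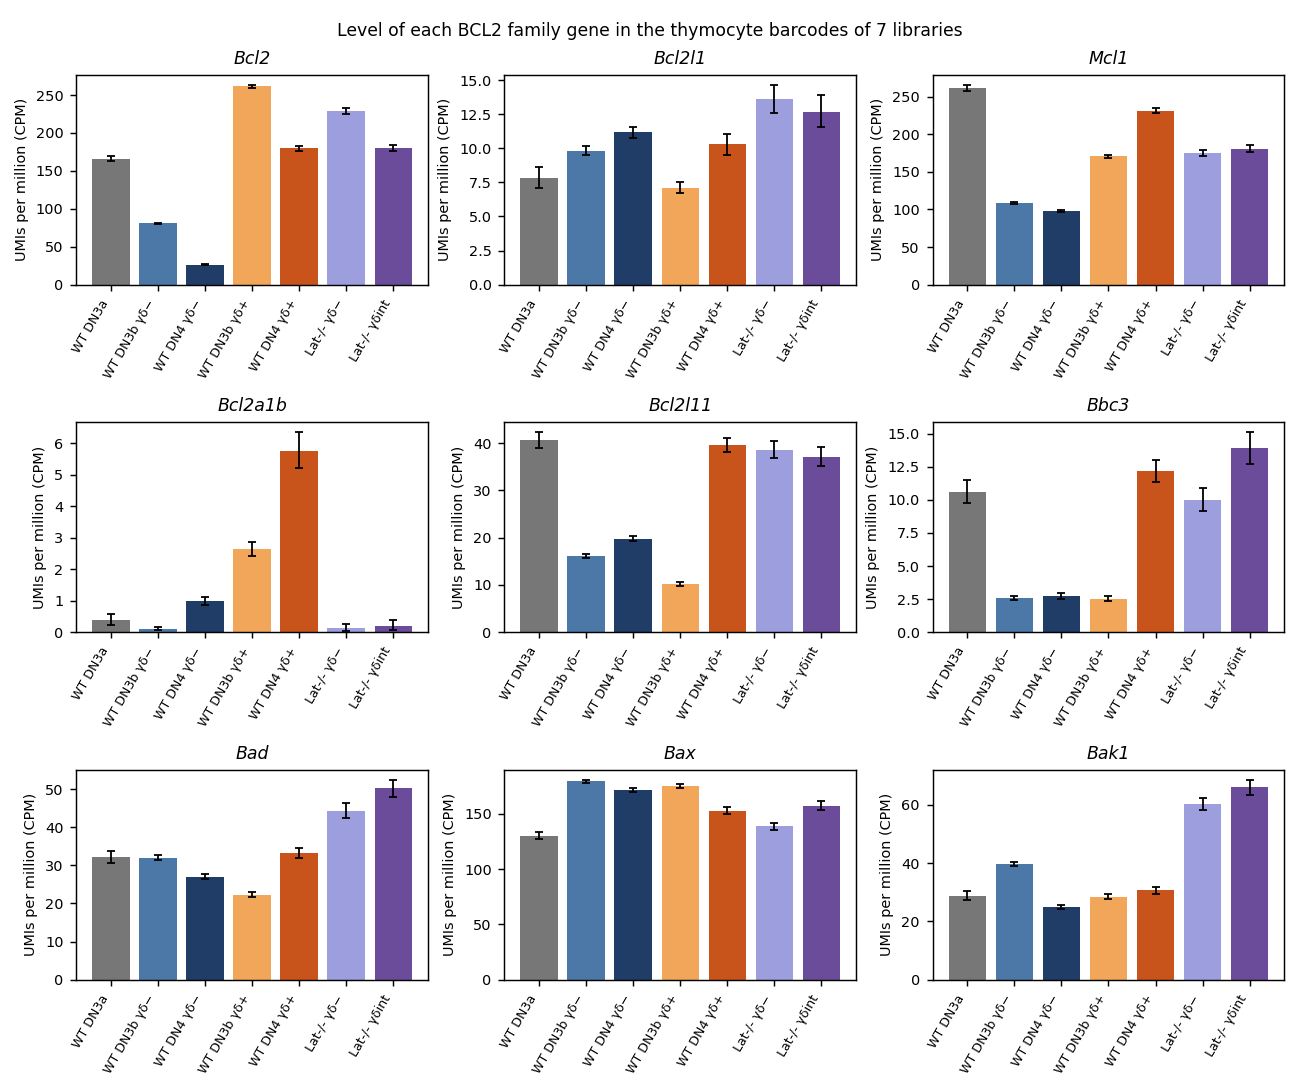
Level of each of the 9 genes in the 7 libraries, in CPM on a linear axis that starts at 0; bars are single libraries and lines are exact 95% Poisson intervals, which cover counting error only. Bcl2 spans 26.4 to 262 CPM and is lowest in WT DN4 γδ-, Bcl2l11 and Bbc3 are low in the 3 libraries in which over 95% of barcodes were cycling, and Bax spans only 130 to 179 CPM.

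Among the survival genes, Bcl2 had the widest range of the well counted members, 9.90-fold. It stood at 166 CPM in WT DN3a, 80.9 for WT DN3b γδ- and 26.4 for the WT DN4 γδ- library, lower at each stage of the αβ path. On the γδ path it stood at 262 CPM in WT DN3b γδ+, the highest of the 7 libraries, and at 180 CPM in WT DN4 γδ+. The Lat-/- libraries held 229 CPM (DN3 γδ-) and 180 CPM (DN3 γδint). Only Lat-/- DN3 γδint and WT DN4 γδ+ had overlapping intervals (176 to 185 and 177 to 183 CPM), and all other neighbours in this order lay apart by more than counting error.

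Mcl1, whose protein turns over quickly and is required throughout lymphocyte development, ran in another order. Its level was 262 CPM in WT DN3a, 231 for WT DN4 γδ+, 181 for Lat-/- DN3 γδint, 175 for Lat-/- DN3 γδ-, 171 for WT DN3b γδ+, 108 for WT DN3b γδ- and 97.5 for the WT DN4 γδ- library. The 3 middle libraries overlapped with their neighbours. Both αβ-path CD71+ libraries were thus the lowest for Mcl1 as they were for Bcl2, but the highest library was WT DN3a and not WT DN3b γδ+.

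Bcl2l1, which encodes BCL-XL, the survival protein associated with the later double positive stage, varied by only 1.91-fold. It stood at 7.85 CPM in WT DN3a, 9.83 for WT DN3b γδ-, 11.2 for WT DN4 γδ-, 7.12 for WT DN3b γδ+ and 10.3 for the WT DN4 γδ+ library, against 13.6 and 12.7 CPM in Lat-/- DN3 γδ- and DN3 γδint. On the αβ path it was therefore highest where Bcl2 was lowest. For every Bcl2l1 UMI there were 21.2 Bcl2 UMIs in WT DN3a, 8.23 for WT DN3b γδ-, 2.37 for WT DN4 γδ-, 36.8 for WT DN3b γδ+ and 17.5 for the WT DN4 γδ+ library, a ratio that does not depend on the scaling of the libraries. WT DN4 γδ- also held the highest sum of erythroid markers, and erythroid precursors are known to use Bcl2l1, and the part of such cells in this value was not tested.

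Bcl2a1b encodes the survival protein A1 and was highest in the γδ+ libraries. It was counted with 515 UMIs (2.63 CPM) in WT DN3b γδ+ and 403 UMIs (5.77 CPM) in WT DN4 γδ+, against 20 UMIs in WT DN3a, 39 for WT DN3b γδ-, 6 for Lat-/- DN3 γδ- and 7 for Lat-/- DN3 γδint. WT DN4 γδ- held 241 UMIs (0.990 CPM), but 187 of them lay in 14 barcodes with 5 or more, of which 13 also carried at least 10 UMIs of Cd74, a gene of antigen-presenting cells. In WT DN4 γδ+, 101 of the 403 UMIs also lay in 14 barcodes with 5 or more, of which 2 carried that much Cd74. Without the barcodes rich in Cd74, an exclusion chosen after seeing the data, WT DN4 γδ- stood at 0.218 CPM, WT DN3b γδ+ at 2.58 CPM and WT DN4 γδ+ at 5.53 CPM. The gene (chr9:89199209-89207827, plus strand) has near-identical neighbours, with 97.4% of its last 300 transcript bases shared with Bcl2a1a and 98.0% with Bcl2a1d, so the division of reads among the copies is uncertain. Bcl2a1d itself was counted at 2.91 CPM in WT DN3b γδ+ and 2.65 CPM in WT DN4 γδ+ and at 0.0199 to 0.304 CPM in the other 5 libraries.

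Bcl2l11, the gene of BIM, split the libraries into a high and a low set. It stood at 40.6 CPM in WT DN3a, 39.6 for WT DN4 γδ+, 38.6 for Lat-/- DN3 γδ- and 37.1 for Lat-/- DN3 γδint, where each neighbour overlapped the next. It stood at 19.8 CPM in WT DN4 γδ-, 16.1 for WT DN3b γδ- and 10.2 for WT DN3b γδ+, which all lay apart. WT DN3b γδ+ thus held the lowest Bcl2l11 and the highest Bcl2: 0.0389 Bcl2l11 UMIs were counted for each Bcl2 UMI there (95% interval 0.0371 to 0.0406), against 0.748 (0.721 to 0.777) in WT DN4 γδ-, whereas the other 5 libraries lay between 0.168 and 0.244.

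Bbc3, the gene of PUMA and a known target of p53 and FoxO factors, gave the same 2 sets. It stood at 13.9 CPM in Lat-/- DN3 γδint, 12.2 for WT DN4 γδ+, 10.6 for WT DN3a and 10.0 for Lat-/- DN3 γδ-, with each overlapping the next. The 3 libraries with over 95% cycling barcodes held 2.75 (WT DN4 γδ-), 2.57 (WT DN3b γδ-) and 2.54 CPM (WT DN3b γδ+), which could not be told apart at this depth.

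Because Bcl2l11 and Bbc3 were high and low in the same libraries, the 250 bases before the start of each member were searched on both strands for 4 motifs: the FoxO motif TGTTTAC, the Egr motif (GCGTGGGCG or GCGGGGGCG), the E-box CACGTG and the κB motif. The FoxO motif was found in 1040 of 32851 RefSeq windows of this length (3.17%) and in 2 of the 15 windows of the members, 1 of Bcl2l11 and 1 of Bbc3. Both genes also have windows without it. The Egr motif was in 3.06% of all windows and in 3 of the 15 (Bbc3, Bcl2a1b and Bcl2l11), so Bcl2l11 and Bbc3 shared it too. The E-box was in 6.02% and in 2 of the 15 (Bax and Bbc3), and the κB motif in 7.25% and in 2 of the 15 (Bbc3 and Bcl2l1). The 2 promoters with the FoxO motif are shown on their coding strand from RefSeq on GRCm38.p6, with that motif or its reverse complement in capitals; it lies 227 bases before the start of Bcl2l11 and 167 before that of Bbc3. The Bbc3 window lies within an intron of 2 longer GENCODE transcripts. A match describes these letters and is not evidence of binding.
Bcl2l11 (chr2:128125788-128126037, plus strand): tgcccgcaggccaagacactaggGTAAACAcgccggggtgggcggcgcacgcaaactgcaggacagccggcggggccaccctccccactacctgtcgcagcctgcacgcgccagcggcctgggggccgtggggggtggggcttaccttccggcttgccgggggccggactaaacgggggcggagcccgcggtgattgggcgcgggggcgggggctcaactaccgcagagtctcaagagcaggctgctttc
Bbc3 (chr7:16310011-16310260, plus strand): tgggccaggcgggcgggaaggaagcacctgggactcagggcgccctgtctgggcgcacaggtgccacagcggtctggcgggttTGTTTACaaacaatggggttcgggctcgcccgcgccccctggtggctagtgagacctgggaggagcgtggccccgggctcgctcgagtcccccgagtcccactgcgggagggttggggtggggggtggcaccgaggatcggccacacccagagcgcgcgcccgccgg

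The FoxO genes themselves were listed as regulators of the family. Foxo3 stood at 36.3 CPM in WT DN3a, 31.6 for WT DN4 γδ+, 41.6 for Lat-/- DN3 γδ- and 31.8 for Lat-/- DN3 γδint, and between 12.7 and 13.5 CPM in the other 3 libraries. Foxo1 was highest in WT DN4 γδ+, at 70.9 CPM, and between 6.61 and 15.01 CPM elsewhere. FoxO proteins are controlled largely after translation, and their activity was not measured here.

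Bad, a BH3-only gene whose protein is controlled by phosphorylation downstream of growth factors, had a narrower range. It stood at 32.2 CPM in WT DN3a, 32.03 for WT DN3b γδ-, 27.0 for WT DN4 γδ-, 22.3 for WT DN3b γδ+, 33.3 for WT DN4 γδ+, 44.4 for Lat-/- DN3 γδ- and 50.2 for Lat-/- DN3 γδint. The Lat-/- libraries were the 2 highest in CPM, and WT DN3a, WT DN3b γδ- and WT DN4 γδ+ were linked by overlaps.

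The effector Bax had the smallest range of the 9 genes in CPM, 1.38-fold. It stood at 130 CPM in WT DN3a, 179 for WT DN3b γδ-, 171 for WT DN4 γδ-, 175 for WT DN3b γδ+, 153 for WT DN4 γδ+, 138 for Lat-/- DN3 γδ- and 157 for Lat-/- DN3 γδint. Against this small range in Bax, the number of Bax UMIs per Bcl2 UMI was 0.783 for WT DN3a, 2.22 for WT DN3b γδ- and 6.48 for the WT DN4 γδ- library, and between 0.604 and 0.872 in the other 4 libraries. The spread of that ratio came mainly from Bcl2.

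Bak1, the second effector, was highest in the Lat-/- libraries in CPM. Its level was 65.97 CPM in DN3 γδint and 60.2 in DN3 γδ-, against 28.8 for WT DN3a, 39.8 for WT DN3b γδ-, 25.04 for WT DN4 γδ-, 28.5 for WT DN3b γδ+ and 30.6 for the WT DN4 γδ+ library. The Lat-/- libraries lay above every WT library by more than counting error, and WT DN4 γδ+, WT DN3a and WT DN3b γδ+ overlapped in turn.

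The scaling of the libraries bears on these orders. Trimmed-mean scaling (TMM), which sets libraries level on the bulk of their genes rather than on their totals, multiplied the totals by 0.816 to 0.838 for the 3 libraries with the most cycling and by 1.40 for Lat-/- DN3 γδint. With it Bcl2 was still highest in WT DN3b γδ+ (312) and lowest in WT DN4 γδ- (32.4), and the 3 libraries lowest in Bcl2l11 and in Bbc3 were still those of high cycling share. Bak1 was at 51.0 in Lat-/- DN3 γδ- and 47.1 in Lat-/- DN3 γδint, but WT DN3b γδ- then stood between them at 48.8. Bad was highest in WT DN3b γδ-, at 39.2, ahead of both Lat-/- libraries, and Bax ran more widely, from 112 in Lat-/- DN3 γδint to 220 in WT DN3b γδ-. Mcl1 of Lat-/- DN3 γδint (129) then lay below WT DN3b γδ- (133), and Bcl2l1 was highest in WT DN4 γδ- (13.7).

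A lower CPM can mean fewer cells with the transcript or less of it per cell. The share of barcodes with a UMI, counted after every barcode was thinned to 4000 UMIs, follows the mean level at such a depth and does not tell the 2 apart. Bcl2 was found in 39.6% of barcodes of WT DN3a, 26.7% of WT DN3b γδ-, 10.4% of WT DN4 γδ-, 60.8% of WT DN3b γδ+, 43.4% of WT DN4 γδ+, 48.5% of Lat-/- DN3 γδ- and 43.3% of Lat-/- DN3 γδint. Bcl2l11 was found in 14.3% to 16.2% of barcodes of the 4 libraries with a high level, and in 4.22% of WT DN3b γδ+, 6.55% of WT DN3b γδ- and 8.10% of WT DN4 γδ-. The shares thus kept the order seen in CPM for both genes, apart from exchanges between libraries whose levels overlapped.

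Mcl1 ranged from 32.9% (WT DN4 γδ-) to 63.8% (WT DN3a). Bax ranged from 38.5% (WT DN3a) to 49.9% (WT DN3b γδ-), Bak1 from 9.69% (WT DN4 γδ-) to 23.0% (Lat-/- DN3 γδint), Bad from 8.66% (WT DN3b γδ+) to 18.6% (Lat-/- DN3 γδint), and Bbc3 from 1.11% (WT DN3b γδ+) to 6.11% (Lat-/- DN3 γδint). Bcl2a1b was found in 1.13% of WT DN3b γδ+ and 1.77% of WT DN4 γδ+ barcodes and in at most 0.186% elsewhere. Every member is expressed by B cells or detected in them, so the spiked cells offer no population that should lack these genes. Among 24 to 58 B barcodes of that depth per library, Bcl2 was found in 29.6% to 61.3%, Bcl2a1b in 16.1% to 34.7% and Bbc3 in 0% to 5.17%.

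**Figure D2:**
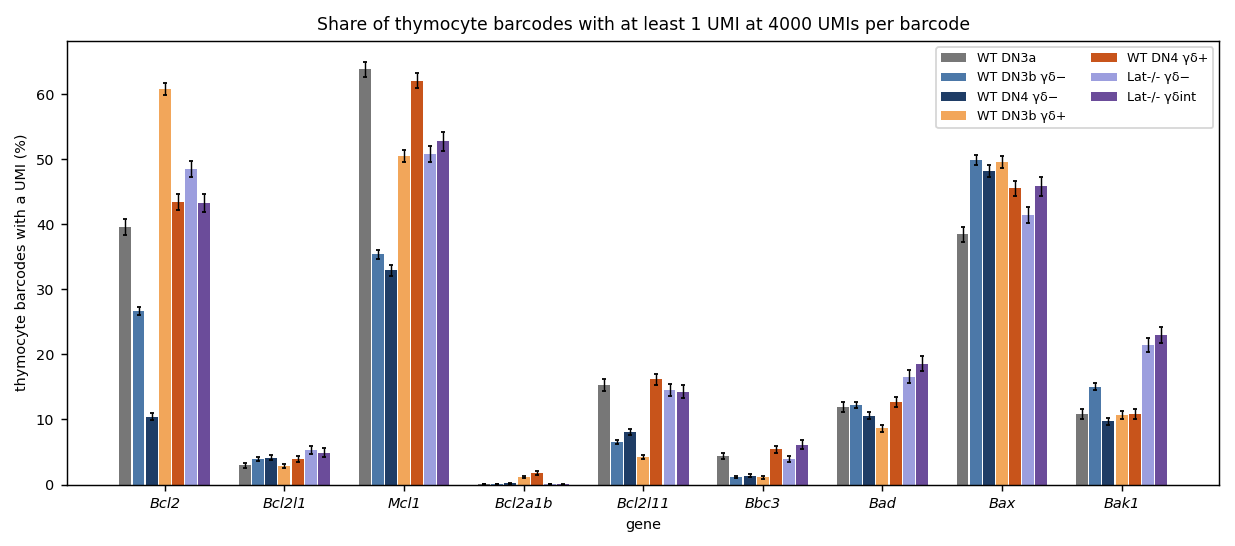
Percent of thymocyte barcodes with at least 1 UMI of each gene after every barcode was thinned to 4000 UMIs. Bars are libraries and lines are exact 95% binomial intervals. Bcl2 runs from 10.4% in WT DN4 γδ- to 60.8% in WT DN3b γδ+, and Bcl2a1b stays at or below 1.77%.

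The B cells put into each tube were measured beside the thymocytes, although their barcodes also carried thymocyte transcripts. Trdc, the δ chain constant segment, stood in B barcodes at 237 CPM in WT DN3b γδ+ and 206 CPM in WT DN4 γδ+ against 0 to 63.7 CPM elsewhere, and in thymocytes of those 2 libraries at 1016 and 1844 CPM. B cell ratios can therefore follow those of the thymocytes and do not measure a shift of the library alone. Of 70 ratios of a member between 2 libraries with over 3 UMIs in the B barcodes of both, 20 had a B cell interval away from 0, and 14 of these had the sign seen in the thymocytes. B cell values are given below where they bear on a result, and their part in the thymocyte ratios was not tested.

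The first comparison follows β selection, from WT DN3a to WT DN3b γδ-. Here 4 of the 8 members with at least 5 CPM in either library were at least 2-fold lower and none was 2-fold higher, whereas 18.0% of the 9273 genes tested were lower and 9.89% higher. The 4 were Bcl2, at -1.04 on the log2 scale (-1.07 to -1.005), Mcl1 at -1.27, Bcl2l11 at -1.33 and Bbc3 at -2.05 (-2.20 to -1.89). Bax and Bak1 were higher, by 0.46 and 0.47, and Bad did not differ beyond counting error (-0.08 to 0.07). The median was -0.52 for the members and -0.13 for all genes. TMM raised every ratio of this comparison by 0.36, and only Bbc3 stayed 2-fold lower under it, beside a background of 10.3% lower and 18.4% higher. Cycling barcodes, defined below, made up 9.36% of WT DN3a and 96.7% of WT DN3b γδ-. None of the members with at least 5 CPM was 2-fold lower within cycling or within non-cycling barcodes alone, beside 6.69% and 7.86% of all genes. Bcl2 stood at -0.88 in cycling barcodes and at 0.72 (0.52 to 0.91) in non-cycling ones, of which WT DN3b γδ- held only 106. In the B barcodes of the same libraries Bcl2 stood at 0.42 (-0.01 to 0.87), an interval that included 0, and Mcl1 at 0.27 (0.01 to 0.53).

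From WT DN3a to WT DN3b γδ+, Bcl2l11 and Bbc3 were the 2 of 8 members at least 2-fold lower, at -1.997 (-2.09 to -1.91) and -2.06 (-2.24 to -1.89). None of the 8 was 2-fold higher, and Bcl2a1b, under 5 CPM in both, stood at 2.82 (2.18 to 3.54). All genes tested gave 16.9% lower and 10.7% higher, or 10.7% and 17.9% with TMM, which raised each ratio by 0.32. Bcl2 was higher by 0.65 and Mcl1 lower, at -0.62. Cycling barcodes made up 9.36% of the first library and 95.1% of the second. Within cycling barcodes Bcl2 stood at 0.83 and Mcl1 at 0.12 (0.04 to 0.21). Bcl2l11 was the only member tested that was still 2-fold lower there, at -1.34, beside 6.70% of all genes. The 2 comparisons share WT DN3a.

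Set directly against each other, WT DN3b γδ+ and WT DN3b γδ- were furthest apart in Bcl2 among the 7 members with at least 5 CPM in either. It was 1.69 higher (1.67 to 1.71; 3.23-fold) in γδ+ cells, the only one of these past 2-fold, beside 5.61% of genes higher and 2.68% lower. Mcl1 was higher by 0.66, and Bcl2l11 (-0.66), Bad (-0.52), Bak1 (-0.48) and Bcl2l1 (-0.47) were lower. Of the 2 members under 5 CPM in both, Bbc3 stood at -0.02 (-0.18 to 0.14) and Bcl2a1b at 4.51 (4.04 to 5.02). Both libraries were over 95% cycling, and in their few non-cycling barcodes Bcl2 stood at 0.28 (-0.01 to 0.56), from 192 UMIs against 221. TMM moved the ratios by only -0.04, and in the B barcodes Bcl2 stood at -0.23 (-0.65 to 0.17). Bax stood at -0.03.

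**Figure D3:**
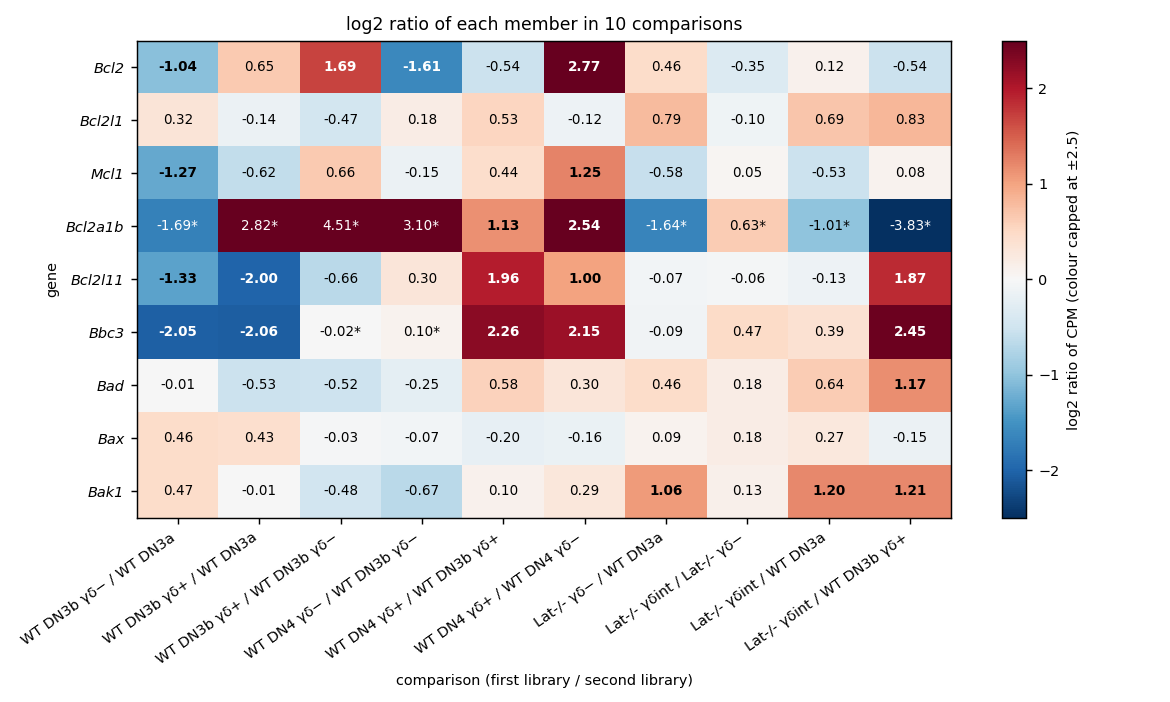
Log2 ratio of each of the 9 genes in 10 comparisons of 2 libraries, in thymocyte barcodes, with colour limited at ±2.5; bold values are at least 2-fold apart with at least 5 CPM in either library and an asterisk marks a gene under 5 CPM in both. Bcl2 is at 1.69 between WT DN3b γδ+ and γδ- and at 2.77 between WT DN4 γδ+ and γδ-, whereas no gene is bold between the 2 Lat-/- libraries.

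On the αβ path from WT DN3b γδ- to WT DN4 γδ-, Bcl2 was lower again, at -1.61 (-1.65 to -1.58; 3.06-fold). It was the only 1 of 7 members past 2-fold, beside a background of 1.08% lower and 0.599% higher over all genes. Bak1 followed at -0.67 and Bcl2l11 was slightly higher, at 0.30. The spiked B cells moved with this result: their Bcl2 stood at -1.41 (-2.02 to -0.84), from 31 UMIs against 135, and their Mcl1 at -0.65 beside -0.15 in thymocytes. Whether the lower Bcl2 of WT DN4 γδ- is in part a property of the library was not tested.

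On the γδ path from WT DN3b γδ+ to WT DN4 γδ+, 3 of 9 members were at least 2-fold higher, beside 13.4% of genes higher and 6.32% lower. They were Bbc3 at 2.26 (2.10 to 2.42), Bcl2l11 at 1.96 (1.88 to 2.05) and Bcl2a1b at 1.13 (0.94 to 1.32). Bcl2 was lower, at -0.54, the only member well below 0, and Bax stood at -0.20. TMM lowered the ratios by 0.30, which took Bcl2a1b to 0.83 and left Bbc3 at 1.96 and Bcl2l11 at 1.66, beside 7.98% higher and 13.3% lower over all genes. Bcl2a1b was also higher in the B barcodes, at 1.40 (0.71 to 2.15). Cycling barcodes made up 95.1% of the first library and 23.1% of the second. Within cycling barcodes no member was 2-fold apart, beside 6.56% of all genes. In non-cycling barcodes, only 67 of them in WT DN3b γδ+, Bcl2a1b was lower in WT DN4 γδ+ rather than higher.

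At the DN4 stage WT DN4 γδ+ exceeded WT DN4 γδ- by at least 2-fold in 5 of 9 members, beside 21.3% of genes higher and 7.94% lower. The ratios were 2.77 for Bcl2 (2.72 to 2.81; 6.80-fold), 2.54 for Bcl2a1b, 2.15 for Bbc3, 1.25 for Mcl1 and 1.003 for Bcl2l11. With TMM, which lowered each by 0.34, Mcl1 (0.91) and Bcl2l11 (0.66) fell short and the background became 14.5% higher and 15.6% lower. In the B barcodes Bcl2 stood at 0.88 (0.26 to 1.53), Mcl1 at 0.61 and Bcl2a1b at 0.94, all smaller than in the thymocytes. Without thymocyte barcodes rich in Cd74, Bcl2a1b stood at 0.218 CPM in WT DN4 γδ- and 5.53 CPM in WT DN4 γδ+, a larger difference. Cycling barcodes made up 95.9% of WT DN4 γδ- and 23.1% of WT DN4 γδ+. Within cycling barcodes Bcl2 was the only one of 7 members past 2-fold, at 2.55 (1.44 in non-cycling barcodes). All genes gave 14.0% higher and 3.10% lower in cycling barcodes.

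Without LAT, DN3 γδ- cells held 1 of 8 members past 2-fold of WT DN3a. This was Bak1, at 1.06 (0.97 to 1.15), where 3.47% of genes were higher and 0.832% lower. Bcl2l1 was higher by 0.79, Bcl2 and Bad each by 0.46, and Mcl1 was lower, at -0.58, whereas Bcl2l11 (-0.16 to 0.02) and Bbc3 (-0.26 to 0.09) had intervals that included 0. TMM lowered the ratios by 0.17, which put Bak1 at 0.89 beside 2.04% of genes higher and 1.36% lower, and leaving mitochondrial and ribosomal genes out of the total put it at 0.93. In the B barcodes Mcl1 stood at -0.57 (-0.86 to -0.27), as in the thymocytes, Bcl2 at 0.69 (0.27 to 1.13) and Bak1 at 0.88 (-0.17 to 2.03). Genotype, reporter, depletion, age, sort gate and library cannot be told apart here.

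The γδint cells, which expressed a γδ receptor without LAT, held no member 2-fold away from the Lat-/- DN3 γδ- cells, where 4.59% of all genes were higher and 3.49% lower. The 8 tested lay between -0.35 (Bcl2) and 0.47 (Bbc3), although cycling barcodes made up 43.9% of γδint and 11.3% of γδ- barcodes. TMM lowered the ratios by 0.25, with 2.46% of genes then higher and 5.29% lower. Against WT DN3a, Bak1 was again the only 1 of 8 past 2-fold, at 1.195 (1.10 to 1.29) and 0.78 with TMM, which lowered this comparison by 0.42; all genes gave 14.1% higher and 4.70% lower, or 4.16% and 7.74% with TMM. Bak1 in the B barcodes of these libraries stood at 1.34 (0.26 to 2.51), from 25 UMIs against 11.

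Against WT DN3b γδ+, the cells that bear a γδ receptor with LAT in place, 4 of 8 members were at least 2-fold higher in Lat-/- DN3 γδint: Bbc3 at 2.45 (2.27 to 2.63), Bcl2l11 at 1.87, Bak1 at 1.21 and Bad at 1.17. Bcl2 was lower, at -0.54 and Mcl1 stood at 0.08. All genes tested gave 29.2% higher and 7.17% lower. This comparison was the most sensitive to scaling, since TMM lowered each ratio by 0.74, to 1.71 for Bbc3, 1.13 for Bcl2l11, 0.47 for Bak1, 0.43 for Bad, -0.66 for Mcl1 and -1.28 for Bcl2, beside 9.23% higher and 17.9% lower. Under either scaling Bcl2l11 and Bbc3 were higher and Bcl2 lower in Lat-/- DN3 γδint. Cycling barcodes made up 43.9% of that library and 95.1% of WT DN3b γδ+. Within cycling barcodes Bcl2l11 stood at 1.69, Bbc3 at 1.85 and Bcl2 at -0.65, and within non-cycling ones at 1.18, 1.45 and -0.83. Genotype, reporter, depletion, age, sort gate and library cannot be told apart in this comparison either. Bcl2 in the B barcodes stood at 0.79 (0.38 to 1.22), the opposite side of 0. Ribosomal protein genes took 15.9% of the UMIs in γδint and 26.5% in WT DN3b γδ+, and leaving these and mitochondrial genes out of the total put Bak1 at 1.05 and Bad at 1.01.

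Cycling and resting barcodes of the same library offer a comparison within 1 tube. A barcode thinned to 4000 UMIs counted as cycling with at least 5 UMIs of 19 cell cycle genes and as non-cycling with at most 1. Barcodes between these limits were in neither class, from 479 of 17673 in WT DN3b γδ- to 1713 of 4537 in Lat-/- DN3 γδint. Shallower barcodes were left out, from 842 of 18515 in WT DN3b γδ- to 1769 of 8703 in WT DN4 γδ+. The paper scored cycle phases by another rule and gives lower cycling shares for WT DN3b γδ+ and Lat-/- DN3 γδint. Cycling barcodes made up 9.36% of WT DN3a, 96.7% of WT DN3b γδ-, 95.9% of WT DN4 γδ-, 95.1% of WT DN3b γδ+, 23.1% of WT DN4 γδ+, 11.3% of Lat-/- DN3 γδ- and 43.9% of Lat-/- DN3 γδint, and the sort gated on CD71, which bears on that order. Only 65 to 106 non-cycling barcodes were left in each of the 3 libraries in which over 95% cycled.

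Bcl2, Mcl1, Bcl2l11 and Bbc3 were lower in cycling than in non-cycling barcodes of all 7 libraries. The ratio ran from -1.84 to -0.22 for Bcl2 and from -0.91 to -0.39 for Mcl1, with all 7 intervals below 0 for each. It ran from -1.57 to -0.24 for Bcl2l11 (6 intervals below 0) and from -2.18 to -1.05 for Bbc3 (5 below 0). Many genes were lower in cycling barcodes: of 7162 genes with over 3 UMIs in both classes of every library, 29.1% were lower in all 7, and 19.6% were below the median of all genes in all 7, a median that ran from -0.19 to -0.11. The 4 members lay below that median in all 7 libraries. Bcl2l1 was lower in 6 of 6 libraries with enough UMIs (-0.77 to -0.22; 3 intervals below 0), and Bad in 5 of 7 (4 below 0). Bbc3, for example, stood at 18.1 CPM in non-cycling and 4.76 CPM in cycling barcodes of WT DN4 γδ+. Bax went the other way in 6 of 7 libraries, although only 2 intervals lay above 0, and Bak1 showed 1 interval below 0 and none above.

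**Figure D4:**
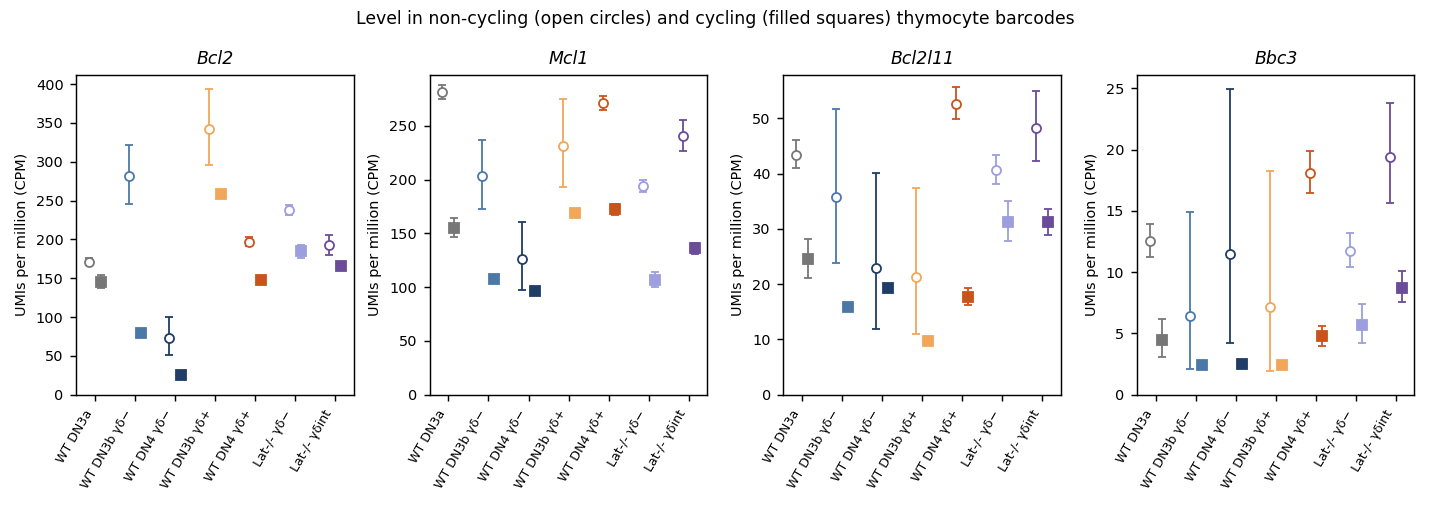
Level of Bcl2, Mcl1, Bcl2l11 and Bbc3, in CPM of all UMIs, in non-cycling (open circles) and cycling (filled squares) barcodes of each of the 7 libraries, with exact 95% Poisson intervals. Barcodes were classed after thinning to 4000 UMIs, and the levels were not thinned. The cycling value lies below the non-cycling value in every library for all 4 genes.

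Within cycling barcodes alone, Bcl2 still stood 1.71 higher in WT DN3b γδ+ than in WT DN3b γδ-, and lower in WT DN4 γδ- than in WT DN3b γδ-, at -1.64. In non-cycling barcodes the first of these was not past 2-fold and its interval included 0, as given above, whereas the second stood at -1.96 (-2.49 to -1.46). For Bbc3 the step from WT DN3b γδ+ to WT DN4 γδ+ was 0.97 in cycling barcodes and 2.26 in all barcodes, and for Bcl2l11 it was 0.88 and 1.96. Bcl2l11 of WT DN4 γδ+ against WT DN4 γδ- was -0.13 in cycling barcodes. Bak1 of Lat-/- DN3 γδ- against WT DN3a was 0.98 in cycling and 1.14 in non-cycling barcodes.

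WT DN4 γδ+ holds cells on their way to different γδ effector types, and splitting its barcodes by a marker gene showed how the family varies inside the library. Barcodes with Cd5, Il7r, Il2rb or S1pr1 held more Bcl2 and less Bcl2l11 than barcodes without. With at least 2 UMIs of Cd5, a surface protein whose level follows receptor signal strength, Bcl2 stood at 270 CPM in 356 barcodes against 169 in the 5384 with none, a log2 ratio of 0.68 (0.52 to 0.83), and Bcl2l11 at 32.3 CPM against 56.9 (-0.82). With Il7r, the interleukin 7 receptor, Bcl2 was higher by 0.64 and Bcl2l11 lower, at -0.85. With Il2rb, the interleukin 2 and 15 receptor β chain carried by interferon γ-producing cells, the values were 0.66 and -0.50, and with S1pr1, the receptor for leaving the thymus, 0.34 and -0.60. Cycling barcodes made up 12.2% of those with S1pr1 against 24.996% of those without, 27.5% against 21.7% for Cd5, 20.5% against 23.3% for Il7r and 25.3% against 22.4% for Il2rb, and the part of cycling in these ratios was not tested. Nr4a1, an immediate target of receptor signalling, went with a Bcl2 ratio of 0.26 and a Bcl2l11 ratio of 0.14 whose interval included 0. Each barcode is 1 cell of a single library, and no spread between animals underlies these differences.

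**Figure D5:**
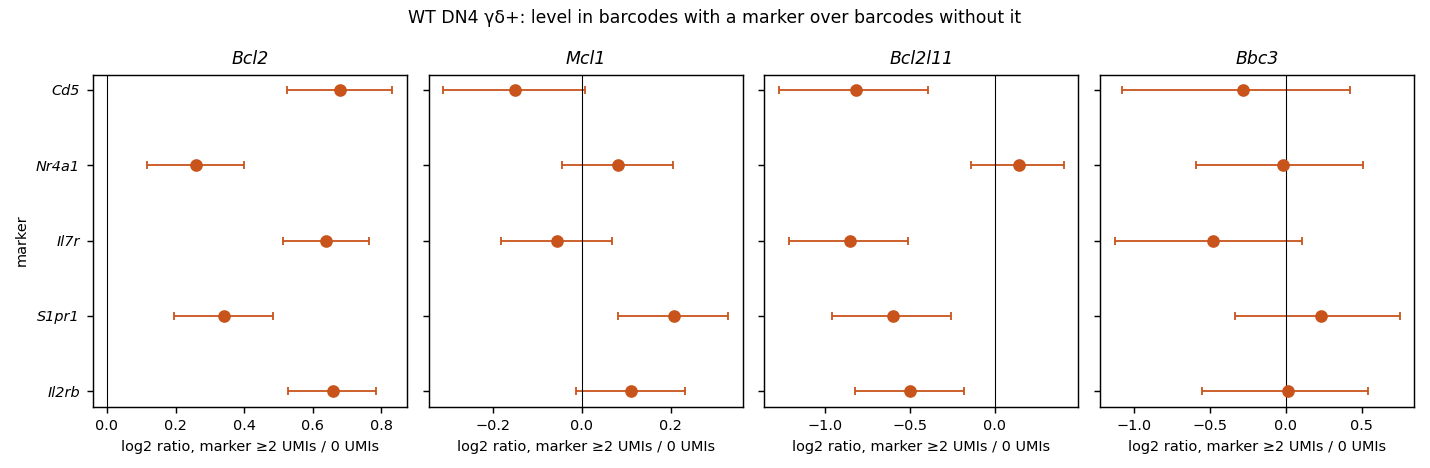
Log2 ratio of Bcl2, Mcl1, Bcl2l11 and Bbc3 between WT DN4 γδ+ barcodes with at least 2 UMIs and those with 0 UMIs of each marker gene, after thinning to 4000 UMIs, with exact 95% intervals for counting error. For Cd5, Il7r, S1pr1 and Il2rb, Bcl2 is above 0 and Bcl2l11 below 0; for Cd5 they are at 0.68 and -0.82.

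In WT DN3b γδ+, 882 barcodes held at least 2 Nr4a1 UMIs and 1383 at least 2 Cd5 UMIs. Bcl2 was higher in them by 0.43 (370 against 275 CPM) and 0.48, and Mcl1 by 0.38 and 0.19. Bcl2l11 stood at 0.23 (-0.25 to 0.68) and -0.34 (-0.79 to 0.09), and with Il7r at 0.57 (-0.16 to 1.21), intervals that included 0. In WT DN4 γδ-, only 64 barcodes held that much Nr4a1, and Bcl2 was 1.496 higher in them (0.80 to 2.11, at 82.0 against 29.1 CPM) and Bcl2l11 1.26 higher (0.34 to 2.04), with 84.4% of them cycling against 96.1% of those without. WT DN3b γδ- and WT DN3a each had 28 such barcodes. Bcl2 stood there at -0.15 (-1.28 to 0.78) and 0.49 (-0.12 to 1.05), intervals that included 0. Nr4a1 itself stood at 85.8 CPM in WT DN3b γδ+ and 102 for the WT DN4 γδ+ library, against 1.43 and 0.820 CPM in Lat-/- DN3 γδ- and DN3 γδint.

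The rest of the family was followed as a list of 16 genes, most of them too low to compare. From WT DN3a to WT DN3b γδ- and to WT DN3b γδ+ the same 4 of 7 tested were at least 2-fold lower and none higher: Bmf, a BH3-only gene, Bcl2l14, Bcl2l2, a survival gene, and Bnip3l, which acts in mitophagy. Over all genes 18.0% and 16.9% were lower. With TMM (10.3% and 10.7% lower) Bnip3l fell short in both comparisons, at -0.90 and -0.89, and Bid was 2-fold higher in WT DN3b γδ-, at 1.34. Bmf stood at 20.97 CPM in WT DN3a, 0.995 for WT DN3b γδ-, 1.46 for WT DN4 γδ-, 0.414 for WT DN3b γδ+, 5.89 for WT DN4 γδ+, 15.8 for Lat-/- DN3 γδ- and 17.3 for Lat-/- DN3 γδint, high in the libraries in which Bcl2l11 and Bbc3 were high. The list's medians were -1.26 and -1.22, beside -0.13 and -0.12 for all genes. Bid, the BH3-only gene cut by caspase 8, ran differently, with 33.3 CPM in WT DN3b γδ- and 45.8 for the WT DN4 γδ- library but 12.8 for WT DN3b γδ+ and 8.99 for the WT DN4 γδ+ library.

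Downstream of the effectors, 12 genes of the apoptosome and the caspases were followed. Of 11 tested, none was at least 2-fold lower in WT DN3b γδ- than in WT DN3a, and Cycs, Htra2 and Endog were among those higher, beside 9.89% of all genes. Cycs, which encodes cytochrome c of both respiration and apoptosis, stood at 173 CPM in WT DN3a, 424 for WT DN3b γδ-, 422 for WT DN4 γδ-, 554 for WT DN3b γδ+, 198 for WT DN4 γδ+, 148 for Lat-/- DN3 γδ- and 125 for Lat-/- DN3 γδint. Cycs thus stood high in the 3 libraries in which Bcl2l11 and Bbc3 were low. Of 6 inhibitors of apoptosis, Birc5, which also acts in cell division, was higher and Birc2 lower at this step, of 4 tested, beside 9.89% of all genes higher and 18.0% lower.

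Of 12 genes of p53 and its targets, 3 of 8 tested were at least 2-fold lower in WT DN3b γδ- than in WT DN3a and none higher, beside 18.0% and 9.89% of all genes: Cdkn1a, the p21 cell cycle inhibitor, Ccng1 and Trp53inp1. With TMM (10.3% lower and 18.4% higher) Ccng1 fell short, at -0.68, and Aen was 2-fold higher, at 1.204. Cdkn1a stood at 89.6 CPM in WT DN3a, 8.76 for WT DN3b γδ-, 5.16 for WT DN4 γδ-, 7.96 for WT DN3b γδ+, 0.788 for WT DN4 γδ+, 112 for Lat-/- DN3 γδ- and 78.5 for Lat-/- DN3 γδint. WT DN4 γδ+, with Bbc3 at 12.2 CPM, was thus the lowest library for Cdkn1a. Among the regulators, Il7r, Foxo1 and Foxo3 were at least 2-fold higher in WT DN4 γδ+ than in WT DN3b γδ+, beside 13.4% of all genes, and Il7r fell short with TMM, at 0.92. Il7r stood at 90.5 CPM in WT DN3a, 77.3 for WT DN3b γδ-, 28.3 for WT DN4 γδ-, 36.5 for WT DN3b γδ+, 85.2 for WT DN4 γδ+, 117 for Lat-/- DN3 γδ- and 60.4 for Lat-/- DN3 γδint. Within WT DN3b γδ+, Bcl2 stood at 370 CPM in 310 barcodes with at least 2 Il7r UMIs and 291 in those with none. That log2 ratio was 0.35 (0.21 to 0.48), with 78.7% of the former cycling against 95.9%. The relation of Il7r to Bcl2 was not tested.

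Over the 7 libraries, the genes whose log2 levels followed a member most closely were named by their root mean square distance from it after centring, among 6991 genes. For Bcl2 these were Coro2a (0.21), Tcrg-C4 (0.36), a constant segment of the γ receptor chain, and Tmem121 (0.39). For Mcl1 they were Rnf130 (0.08), Arhgap17 and Zfp217, and for Bcl2l11 P2ry10 (0.15), Rnf213 and N4bp2l1. Bax, which varied little, lay within 0.08 of Cdk11b, Trappc5 and Pop7, Bad ran with Rps6ka5, Ldah and Pot1a, and Bak1 with Ccdc61, Egln2 and Gga1. These 7 points share the differences in depth and cycling of the libraries.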

How the data were processed

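Droplet-based 3' single-cell RNA libraries (10x v3 chemistry) of 7 sorted thymocyte populations, 1 library each, were analysed from the gene-by-barcode matrices of UMI counts that the authors deposited, which hold raw counts for 32286 features and no comparisons of their own. Per the file headers they were made with Cell Ranger 4.0.0, and the submitters' processing notes name Cell Ranger 5.0.1, mm10, R 3.6.3 and Seurat 3.1.5; the methods describe a reference edited for the Trdc reporter. Barcodes needed at least 200 genes and no more than 15% of UMIs from mitochondrial genes. Those with at most 1 UMI of Cd79a, Cd79b and Ms4a1 were thymocytes, and those with at least 10 such UMIs and at least 2 times their T cell marker UMIs were B cells. Barcodes in neither class were left out, from 557 of 13617 in WT DN4 γδ- to 1416 of 8071 in Lat-/- DN3 γδ-. Cd79b still stood at 8.65 and 49.3 CPM in the thymocyte barcodes of these 2 libraries. Whether the limit also dropped thymocytes was not tested. The sort removed doublets by scatter, and no caller was run. Thymocyte UMIs were summed per library (37820685 to 338698944) and scaled to their total. A gene was compared with at least 5 CPM in either library and counted at 2-fold or more. With 1 library per group no test was run; intervals (Poisson for levels, Clopper-Pearson for shares, conditional binomial for ratios) cover counting error at 95%. Shares, cycling classes and marker splits used barcodes thinned to 4000 UMIs, with shallower barcodes left out. Marker splits set at least 2 UMIs against 0, and ratios with a count of 0 used a floor of 3 counts and are not printed.

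The members and gene lists were chosen with earlier results of these data known. Besides the 9 members, the text names genes of the other lists with at least 20 CPM in 1 library and a 2-fold difference in the comparison described, the regulators, and for members with at least 20 CPM the 3 genes nearest in level over the 7 libraries (at least 20 CPM in 1 library and 10 UMIs in each). Bcl2l2, Bcl2a1d, Aen, Trdc and the deleted gene Lat fall outside this rule and were named after their values were seen; results for some genes of these lists are not reported here. Alternatives were TMM scaling (edgeR 4.0.16), other totals, stricter and looser barcode filters, the 8% of barcodes with the most UMIs left out, mean single-barcode CPM, a 1.5-fold threshold, no low-value filter, other depths and non-cycling barcodes alone; cycling barcodes alone and the exclusion of barcodes with at least 10 Cd74 UMIs were added after seeing the data. Scripts ran under Python 3.11.15 (numpy 2.4.6, pandas 2.3.3, scipy 1.17.1, biopython 1.88, matplotlib 3.10.9) and R 4.3.3 and were tested on simulated data.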

Additional observations from a re-analysis of the deposited data

Results flagged for a closer look

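Some members stood on opposite sides of 0 when the same step was taken on the αβ and the γδ path, and these differences between paths were not tested, since each path was 1 library per stage. From WT DN3a to DN3b, Bcl2 had a log2 ratio of -1.04 on the γδ- path and 0.65 on the γδ+ path, and Bcl2a1b, from few UMIs, -1.69 and 2.82. Within cycling barcodes Bcl2 stood at -0.88 and 0.83, and within non-cycling ones, few at DN3b, above 0 on both paths, at 0.72 and 0.995. Both paths share the WT DN3a library. From DN3b to DN4, Mcl1 had -0.15 on the γδ- path and 0.44 on the γδ+ path, Bad -0.25 and 0.58, and Bak1 -0.67 and 0.10. Mcl1 in the spiked B cells had the same signs, at -0.65 (-0.94 to -0.36) and 0.31 (0.04 to 0.58). Under TMM scaling Bak1 stood at -0.20 on the γδ+ path, so its 2 signs were then the same. WT DN4 γδ+ was the less cycling library of that pair, and the part of cycling in these differences was not tested.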

How the results depend on the processing

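No paired analysis was possible because each group was 1 library. Counts of members at least 2-fold apart moved as follows. From WT DN3a to DN3b γδ- the 4 members became 1 with TMM scaling, 0 in non-cycling barcodes (13.4% of all genes 2-fold apart there) and 0 in cycling barcodes (10.1%). From WT DN3a to DN3b γδ+ the 2 became 4 at 1.5-fold (49.4%) and 1 in cycling barcodes (12.3%). Between WT DN3b γδ+ and γδ- the 1 became 3 at 1.5-fold (21.4%), 2 without the low-value filter, and 2 in non-cycling barcodes (24.6%), where Bcl2 fell short at 0.28 (-0.01 to 0.56) and the 2 were Bcl2l1 and Bcl2a1b, each from 13 or fewer UMIs per library. From WT DN3b γδ- to DN4 γδ- the 1 became 2 at 1.5-fold (10.0%) and without the filter. From WT DN3b γδ+ to DN4 γδ+ the 3 became 0 in cycling barcodes (6.56%). Between WT DN4 γδ+ and γδ- the 5 became 3 with TMM and in non-cycling barcodes (28.3%), and 1 in cycling barcodes (17.1%). Between Lat-/- DN3 γδ- and WT DN3a the 1 became 2 at 1.5-fold (20.8%) and without the filter, and 0 with TMM and with a total that left out mitochondrial and ribosomal genes. Between Lat-/- DN3 γδint and WT DN3a the 1 became 3 at 1.5-fold (48.1%), 2 without the filter, in non-cycling (17.8%) and in cycling barcodes (19.1%), and 0 with TMM and the reduced total. The other 2 comparisons stayed within 1.5 times of their counts. It was 0 between the Lat-/- libraries (24.0% of all genes at 1.5-fold). It was 3 to 5 between Lat-/- DN3 γδint and WT DN3b γδ+ (61.0% at 1.5-fold, 27.2% with TMM). The members behind the latter count changed: with TMM Bak1 and Bad fell short and Bcl2 became 2-fold lower. No share of all genes is given for counts without the filter or with the reduced total.

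Of 22 ratios past 2-fold, 12 stayed so with TMM, 12 in non-cycling and 10 in cycling barcodes, 19 with the reduced total, 21 with mean single-barcode CPM or a T cell marker demanded, and all 22 under the other barcode filters. In these alternatives 3 of the 22 changed sign: Bcl2 from WT DN3a to DN3b γδ- to 0.72 and Bcl2a1b from WT DN3b γδ+ to DN4 γδ+ to -0.48 in non-cycling barcodes, and Bcl2l11 between WT DN4 γδ+ and γδ- to -0.13 in cycling barcodes. The cause was not tested, and few non-cycling barcodes remained in the DN3b and DN4 γδ- libraries. Shares of barcodes depend on depth, and at 2000 UMIs 59 of 63 lay outside their main interval.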
